A study of Mus musculus with 17 samples.

Results

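Mitochondrial DNA codes for 6 mRNAs of respiratory complexes III, IV and V: mt-Cytb for complex III, mt-Co1, mt-Co2 and mt-Co3 for complex IV, and mt-Atp6 and mt-Atp8 for complex V. These 6 genes, of 49585 in the deposited tables, were taken by their names, with no threshold on a measured value, and all 6 were found. The set was drawn up with earlier results of these data known. They were followed in cell-free RNA (cfRNA) of mouse plasma from the MHU-1 spaceflight mission, which separated the effect of gravity from that of the other conditions of flight. The mice were wild type C57BL/6J, aged 13 weeks, with no drug or transgene in any group. Flight mice lived in microgravity (MG, n = 6) or under artificial 1-G made in flight (AG, n = 6), and ground control mice (GC, n = 5) stayed on Earth. Each library was made from the plasma of 1 mouse with a small RNA kit, chosen because the RNA was degraded, so the reads come from fragments and not from whole mRNAs.

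Cytochrome b carries electrons within complex III, which passes them on to cytochrome c. The mt-Co1, mt-Co2 and mt-Co3 proteins form the core of cytochrome c oxidase (complex IV), where oxygen is reduced to water, and the mt-Atp6 and mt-Atp8 proteins belong to the membrane part of the ATP synthase (complex V), through which protons flow back. Mitochondrial genes are transcribed as long precursors that are cut into separate RNAs, mostly at the tRNAs between them, and the other subunits of these complexes are coded in the nucleus. In plasma, such RNA can lie in vesicles, platelets, free mitochondria or cell debris, so that fewer particles of a kind and less RNA per particle cannot be told apart.

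All 6 genes lie on the + strand of mitochondrial DNA (GRCm38, GENCODE M21): mt-Co1 at chrM:5328-6872, mt-Co2 at chrM:7013-7696, mt-Atp8 at chrM:7766-7969, mt-Atp6 at chrM:7927-8607, mt-Co3 at chrM:8607-9390 and mt-Cytb at chrM:14145-15288. Each is a protein-coding gene without introns. The end of mt-Atp8 and the start of mt-Atp6 share 43 bases, 21.1% of mt-Atp8, in different reading frames, and a read inside this stretch belongs to both genes. The stretch is shown because it limits how far the complex V genes can be counted apart. Capitals mark the start codon of mt-Atp6 and the stop codon of mt-Atp8, and the bases are those of the GENCODE transcripts.
chrM:7927-7969: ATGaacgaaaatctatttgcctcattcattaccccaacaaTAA

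The 3′ ends also differ among the members. The last 30 bases of the annotated genes are shown with their stop bases in capitals. The genes mt-Co1, mt-Co2 and mt-Atp6 end in a whole stop codon, as does mt-Atp8 in the stretch above, whereas mt-Cytb and mt-Co3 end in a single T. In these genes the stop codon is made complete by the poly(A) tail that is added to the mRNA.
mt-Cytb: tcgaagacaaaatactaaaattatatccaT
mt-Co1: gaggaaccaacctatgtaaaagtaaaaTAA
mt-Co2: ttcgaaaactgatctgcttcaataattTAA
mt-Co3: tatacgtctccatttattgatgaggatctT
mt-Atp6: gtaagcctatatctacatgataatacaTAA

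Some of these genes have near-identical copies in nuclear DNA, which matters for reads of 36 bases. A stretch of chromosome 1, chr1:24613189-24616197, holds 4 annotated pseudogenes on the − strand: Gm28661 matched mt-Co2 over 681 bases with 100% identity, Gm10925 matched mt-Atp6 over 678 bases with 100% identity, Gm28437 matched mt-Co3 over 783 bases with 100% identity, and Gm29216 matched mt-Co1 over 483 bases with 99.8% identity. On chromosome 2, Gm13340 matched mt-Co1 at 97.6% and Gm13341 matched mt-Co2 at 95.9%. No annotated transcript matched mt-Cytb or mt-Atp8 over 100 bases at 95% identity or more. As a result, 100% of the 36-base windows of mt-Co2, 99.9% of those of mt-Co3, 99.5% of those of mt-Atp6 and 59.7% of those of mt-Co1 also occurred in another annotated transcript, against 3.07% for mt-Cytb and 4.73% for mt-Atp8. To show the contrast, 36 bases of mt-Co2 (chrM:7113-7148) and of mt-Cytb (chrM:14245-14280) are given beside the same positions of their closest nuclear copies, with capitals at the bases that differ. The mt-Co2 pair had 0 differences in this window and 0 of 681 over the copy, and the mt-Cytb pair had 3 in the window and 82 of 1143 bases overall.
mt-Co2: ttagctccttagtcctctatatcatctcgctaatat
Gm28661: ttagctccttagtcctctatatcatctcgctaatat
mt-Cytb: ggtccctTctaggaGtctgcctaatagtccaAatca
Gm11410: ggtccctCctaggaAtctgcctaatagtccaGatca

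The deposited counts gave no read to the 4 copies on chromosome 1, but their RPKM values were above 0 in part of the libraries and converted to whole reads. Of 17 libraries this held in 12 for Gm28661, 11 for Gm10925, 11 for Gm28437 and 9 for Gm29216. Over the 17 libraries these came to 28 reads for Gm28661, equal to 1.41% of the mt-Co2 reads, 27 reads for Gm10925 (3.31% of mt-Atp6), 14 reads for Gm28437 (1.70% of mt-Co3) and 16 reads for Gm29216 (0.689% of mt-Co1). The highest share in a single library was 9.38%, for Gm28437. Reads of 36 bases from the shared windows cannot be assigned to the mitochondrial or the nuclear copy by sequence, and how the authors' software placed them was not given in the sources used here. By annotated transcripts, mt-Cytb is the least open to this uncertainty. The low value of mt-Atp8 covers annotated transcripts only: mt-Atp8 lies between mt-Co2 and mt-Atp6, and the bases of chromosome 1 between the copies of these genes were not examined.

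The libraries were shallow. Total counts per gene table ran from 84657 to 277682, and the 6 members together received 6988 reads: 2322 for mt-Co1, 1986 for mt-Co2, 887 for mt-Cytb, 822 for mt-Co3, 815 for mt-Atp6 and 156 for mt-Atp8. Each member had reads in 17 of 17 libraries. The counts per library went from 37 to 255 for mt-Co1, from 19 to 230 for mt-Co2, from 14 to 110 for mt-Cytb, from 11 to 93 for mt-Co3, from 6 to 90 for mt-Atp6 and from 2 to 24 for mt-Atp8. The summed member reads were 92 to 493 in AG, 212 to 769 in MG and 264 to 597 in GC.

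A feature of the whole series bears on every level given here. The 4 genes above 5% of any library took 86.9% to 91.7% of the counts in AG, 70.6% to 83.5% in MG and 76.9% to 83.1% in GC, so all other genes shared a smaller part of the AG libraries. Counts were therefore scaled by trimmed mean of M values (TMM, a factor per library taken from the bulk of the genes) and given as CPM (counts relative to the scaled library size). The factors were 0.482 to 0.907 in AG, 0.577 to 1.93 in MG and 0.525 to 1.74 in GC. MG replicate 4 and AG replicate 6 stood apart in that only 1.19% and 2.43% of their mapped reads were in the counts, where the other libraries had 2.87% to 5.78%.

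In MG against AG, all 6 members had higher mean levels in MG, from 0.31 to 0.80 on the log2 scale. In edgeR's quasi-likelihood test with Benjamini-Hochberg adjustment, 0 of 6 passed an adjusted threshold of 0.05, as did 0 of all 272 tested genes. The criterion used in the study, an unadjusted p under 0.05 with a fold change over 1.5, was met by mt-Cytb and mt-Co2, 2 of 6 members, where 4.78% of all tested genes were higher and 8.46% lower by it. At an unadjusted p under 0.05 alone the same 2 passed, where 13.2% of the tested genes did. DESeq2 put 3 members past the criterion, mt-Co3 being the third, among 18 of 272 genes that were higher by it. By exact Mann-Whitney tests of mean-scaled RPKM, mt-Cytb, mt-Co1, mt-Co2 and mt-Co3 met the criterion, among 21 of 272 genes that were higher by it, and their adjusted p ran from 0.131 to 0.294. DESeq2, edgeR's exact test and limma also found 0 of 6 members at an adjusted p under 0.05, where 9, 5 and 0 of 272 genes passed. The median of the members was 0.57 and that of all tested genes was 0.17, and 64.7% of the tested genes had a fold change above 0. All 6 members passed the filter on low counts.

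**Figure D1:**
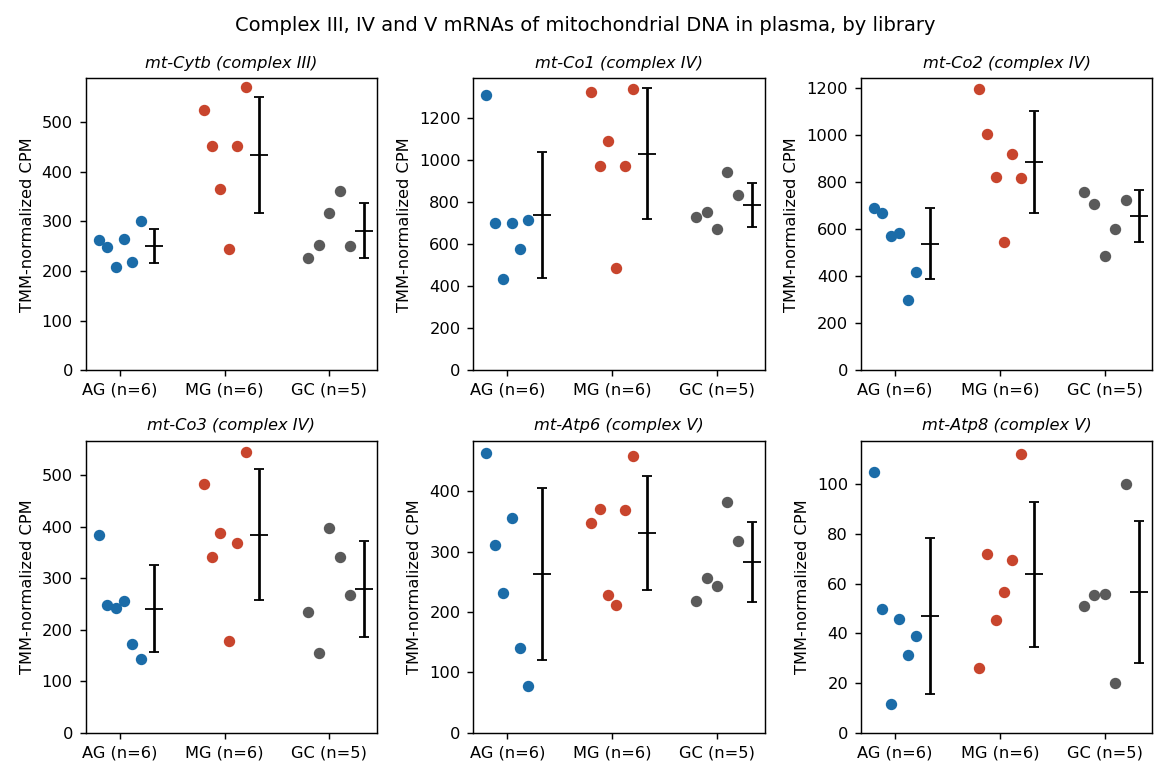
TMM-normalized CPM (vertical axes, from 0) of the 6 members in each library of AG, MG and GC; each point is a library, and the bar beside each group is the mean with 1 SD. The MG points of mt-Cytb and mt-Co2 lie above every AG point except for 1 library, MG replicate 4, while those of mt-Atp6 and mt-Atp8 are spread over the range of AG.

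Of the complex III gene mt-Cytb, the AG libraries held 208 TMM-normalized CPM at the lowest, 255 at the median and 300.2 at the highest, and the MG libraries 243, 451 and 569.7. The GC libraries held 226, 252, 317, 361 and 250.5 in replicates 1 to 5. In 5 of 6 MG libraries mt-Cytb was above every AG and every GC library, and MG replicate 4 was within the range of both. The means ± SD were 250.3 ± 33.6, 434 ± 117 and 281 ± 55.8 for AG (n = 6), MG (n = 6) and GC (n = 5). The log2 fold change of MG against AG was 0.80 (SE 0.33, 95% interval 0.15 to 1.44), a fold of 1.74, with an unadjusted p of 0.0237 and an adjusted p of 0.280 by the quasi-likelihood test. Against GC it was 0.63 (SE 0.34, 95% interval −0.04 to 1.30; adjusted p = 0.994). Between AG and GC it was −0.17 (SE 0.34, 95% interval −0.84 to 0.51; adjusted p = 0.850).

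When 1 library at a time was left out, mt-Cytb met the study criterion for MG over AG in 15 of 17 fits. Its log2 fold change then lay between 0.71 and 0.91 and its adjusted p between 0.162 and 0.475. It missed the criterion without AG replicate 3, without MG replicate 1, and, with all libraries, when no filter on low counts was used (log2 fold change 0.94, unadjusted p of 0.0945). Between MG and GC it met the criterion in 2 of 17 fits, without MG replicate 3 and without MG replicate 4. With MG replicate 4 and AG replicate 6 both left out, mt-Cytb was 0.95 (SE 0.36) higher in MG than in AG, with an unadjusted p of 0.0139 and an adjusted p of 0.161, and 0.76 (SE 0.35) higher in MG than in GC, with an unadjusted p of 0.0428 and an adjusted p of 0.996, in the quasi-likelihood test. The largest spread of mt-Cytb was in MG, where the coefficient of variation was 26.9%, compared with 13.4% in AG and 19.9% in GC.

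Of the complex IV genes, mt-Co1 and mt-Co2 had the most reads of the members, while mt-Co3 had fewer than mt-Cytb. The level of mt-Co1, the catalytic subunit, was 433 CPM at the lowest, 701 at the median and 1311 at the highest in AG, and 487, 1035 and 1340 in MG. In GC it was 729.8, 756, 671, 943 and 835 in replicates 1 to 5. The ranges overlapped in each pair of groups, and the GC values lay within both flight ranges. Means ± SD were 740.5 ± 300.1, 1033 ± 312 and 787 ± 105 for AG (n = 6), MG (n = 6) and GC (n = 5). The difference of MG against AG, 0.48 on the log2 scale (SE 0.35, 95% interval −0.20 to 1.16), did not pass the quasi-likelihood test (adjusted p = 0.603). The values against GC were 0.39 (SE 0.36) for MG, with an adjusted p of 0.994, and −0.09 (SE 0.36) for AG, with an adjusted p of 0.902.

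For mt-Co2, the subunit that takes up electrons from cytochrome c, AG held 297 CPM at the lowest, 578 at the median and 691 at the highest, and MG held 544, 869 and 1195. GC replicates 1 to 5 held 759, 704, 484, 602 and 722. As for mt-Cytb, 5 of 6 MG libraries were above all AG and all GC libraries, and MG replicate 4 was the exception. The means ± SD were 538 ± 152, 883 ± 217 and 654 ± 111 for AG (n = 6), MG (n = 6) and GC (n = 5). The log2 fold change of MG against AG was 0.71 (SE 0.33, 95% interval 0.06 to 1.35), a fold of 1.63, with an unadjusted p of 0.0420 and an adjusted p of 0.343 by the quasi-likelihood test. Its call by the criterion of the study was kept in 7 of 17 fits with 1 library left out, where the adjusted p ran from 0.229 to 0.521. The call was also lost with limma, with no filter on low counts, with only the 2 groups fitted and with the dominant genes left out, at unadjusted p from 0.0633 to 0.151. With MG replicate 4 and AG replicate 6 both left out, the change was 0.74 (SE 0.37) with an unadjusted p of 0.0549 and an adjusted p of 0.326 by the same test. The values against GC were 0.43 (SE 0.34, adjusted p = 0.994) for MG and −0.28 (SE 0.34, adjusted p = 0.757) for AG in that test.

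The third core subunit gene, mt-Co3, was at 144, 245 and 385 CPM (lowest, median and highest) in AG and at 179, 378 and 546 in MG. In GC it was at 234, 156, 397, 341 and 267 in replicates 1 to 5. All groups overlapped: MG replicate 4 was below 4 of 6 AG libraries, and GC spanned most of the AG range. Means ± SD were 241 ± 83.9, 384 ± 127 and 279 ± 94.0 for AG (n = 6), MG (n = 6) and GC (n = 5). In the quasi-likelihood test MG against AG gave 0.66 (SE 0.37, 95% interval −0.07 to 1.395), with an unadjusted p of 0.0903 and an adjusted p of 0.456. It met the criterion of the study in 2 of 17 fits with 1 library left out, without AG replicate 1 and without MG replicate 4. MG against GC gave 0.47 (SE 0.39, adjusted p = 0.994), and AG against GC −0.20 (SE 0.39, adjusted p = 0.848).

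The complex V genes had the smallest differences relative to their standard errors in both comparisons with MG. For mt-Atp6, which forms part of the proton path, AG held 78.3 CPM at the lowest, 271 at the median and 463 at the highest, MG held 211, 358 and 457, and GC replicates 1 to 5 held 219, 256, 242, 381 and 317. The highest value of any library was in AG replicate 1 and the lowest in AG replicate 6, so the AG range enclosed both other groups. The log2 fold changes by the quasi-likelihood test were 0.31 (SE 0.40, 95% interval −0.46 to 1.09, adjusted p = 0.789) for MG against AG, 0.23 (SE 0.41, adjusted p = 0.994) for MG against GC and −0.09 (SE 0.42, adjusted p = 0.914) for AG against GC. With 1 library left out, the first ran from 0.12 (without AG replicate 6) to 0.53 (without AG replicate 1). The last of these was above 0 when AG replicate 5, AG replicate 6, MG replicate 3 or GC replicate 4 was left out, at 0.035, 0.099, 0.0062 and 0.037.

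The gene of the small accessory subunit, mt-Atp8, had 2 to 24 reads per library, so counting error alone is large. Its level was 11.5, 42.4 and 105 CPM (lowest, median and highest) in AG, 26.0, 63.2 and 112 in MG, and 51.1, 55.6, 55.9, 20.1 and 100.2 in GC replicates 1 to 5. The groups covered nearly the same range. By the quasi-likelihood test MG against AG gave a log2 fold change of 0.42 (SE 0.50, 95% interval −0.55 to 1.40, adjusted p = 0.777), and the comparisons with GC gave 0.12 (SE 0.50, adjusted p = 0.994) for MG and −0.30 (SE 0.52, adjusted p = 0.817) for AG. The first ran from 0.19 without AG replicate 3 to 0.82 without AG replicate 1. Its coefficient of variation was 66.8% in AG, 45.8% in MG and 50.5% in GC. At this depth a difference of the size seen for mt-Cytb lay inside the interval of mt-Atp8.

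**Figure D2:**
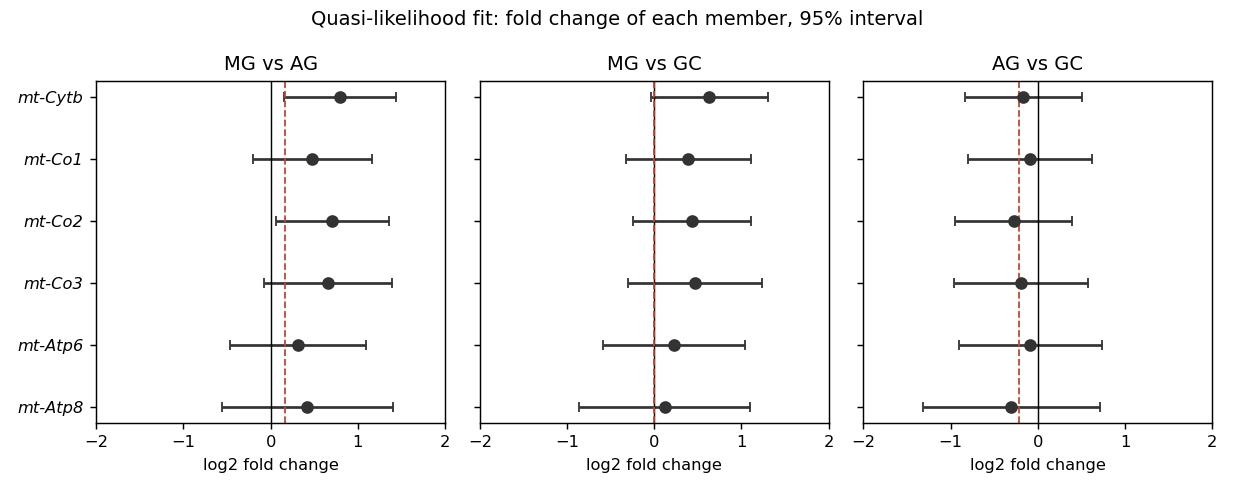
Log2 fold change of each member (points) with its 95% interval (bars) from the quasi-likelihood fit, for MG against AG, MG against GC and AG against GC; the solid line is at 0 and the dashed line at the median of the 272 tested genes. The intervals of mt-Cytb and mt-Co2 in MG against AG lie above 0 but reach below the median of all tested genes, 0.17, and all other intervals cross 0. The bars use a normal quantile and are narrower than the F-test of that fit implies.

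In MG against GC, the members were 0.12 to 0.63 on the log2 scale above GC, with a median of 0.41 compared with 0.00 for all tested genes, and 0 of 6 met the criterion of the study, where 4.41% of the tested genes did, with 3.68% of all being higher in MG. At an unadjusted p under 0.05 the count was also 0 of 6 in the quasi-likelihood test, and DESeq2 gave 1 member past the criterion, mt-Cytb, among 11 of 272 genes that were higher by it. The fold change was above 0 in 6 of 6 members and in 50% of all tested genes. In AG against GC, the members were between −0.30 and −0.09, with a median of −0.18 compared with −0.21 for all tested genes. Again 0 of 6 met the criterion, where 11.8% of tested genes did, 6.25% being higher and 5.51% lower in AG. The count was also 0 at an unadjusted p under 0.05, where 11.8% of tested genes passed. At an adjusted p under 0.05 it was 0 in the quasi-likelihood test, where 4 of 272 genes passed. It was 0 by DESeq2, edgeR's exact test and limma as well, where 8, 7 and 0 of 272 genes passed. The 3 comparisons share their libraries, MG being in 2 of them, as are AG and GC, so they are not independent of each other.

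The count of called members moved most when the TMM factors were left out. Scaled by library totals alone, with no TMM factor, 6 of 6 members met the criterion between MG and AG and 4 of 6 had an adjusted p under 0.05 in the same quasi-likelihood test, where 58 of 272 genes did: mt-Cytb with a log2 fold change of 1.88 (adjusted p = 0.0124), mt-Co1 with 1.51 (adjusted p = 0.0221), mt-Co2 with 1.80 (adjusted p = 0.0182) and mt-Co3 with 1.65 (adjusted p = 0.0216). With that scaling the median of all tested genes also moved, from 0.17 to 1.27, and 132 of 272 genes met the criterion, all of them higher in MG. Relative to the median of all genes, the median member stood 0.31 above with library totals and 0.40 above with TMM. Between AG and GC, library totals put the median gene at −1.14 and the median member at −1.06, 0.08 above it, and 4 of 6 members met the criterion, as did 113 of 272 genes. The part of the 4 most abundant genes in the absolute levels was not tested.

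Ratios within a library do not depend on this scaling. As a share of the reads of the 13 mitochondrial mRNAs, mt-Co1 averaged 21.5% ± 3.13, 20.05% ± 3.65 and 20.6% ± 2.90 (mean ± SD for AG with n = 6, MG with n = 6 and GC with n = 5), and mt-Co2 was 16.6% ± 5.65, 17.6% ± 3.49 and 17.5% ± 4.95. The shares of mt-Co3 were 7.23% ± 1.99, 7.40% ± 1.24 and 7.14% ± 1.88 in the same order. For mt-Cytb they were 7.73% ± 1.65, 8.48% ± 0.811 and 7.27% ± 0.613, for mt-Atp6 7.78% ± 3.55, 6.51% ± 1.18 and 7.34% ± 1.25, and for mt-Atp8 1.30% ± 0.538, 1.33% ± 0.618 and 1.56% ± 0.874. In an exact two-sided permutation test of the log2 odds, 0 of 39 shares (13 genes in 3 pairs of groups) had an adjusted p under 0.05. With so few libraries the smallest p this permutation test can give is 0.0022. For a single share that becomes an adjusted p of 0.084, so a share that changed alone could not pass. The count of 0 therefore does not show that the shares were equal. The smallest p of a member was for mt-Cytb between MG and GC, with a log2 odds difference of 0.24 (SE 0.09), an exact permutation p = 0.0238 and adjusted p = 0.310. It was the only member share with an unadjusted p under 0.05 in that test. With the reads of mt-Atp6 and mt-Atp8 summed, since they overlap, the shares were 9.07% ± 3.72, 7.84% ± 1.78 and 8.89% ± 1.85 in the same order, and the exact permutation p was 0.680 for MG against AG.

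**Figure D3:**
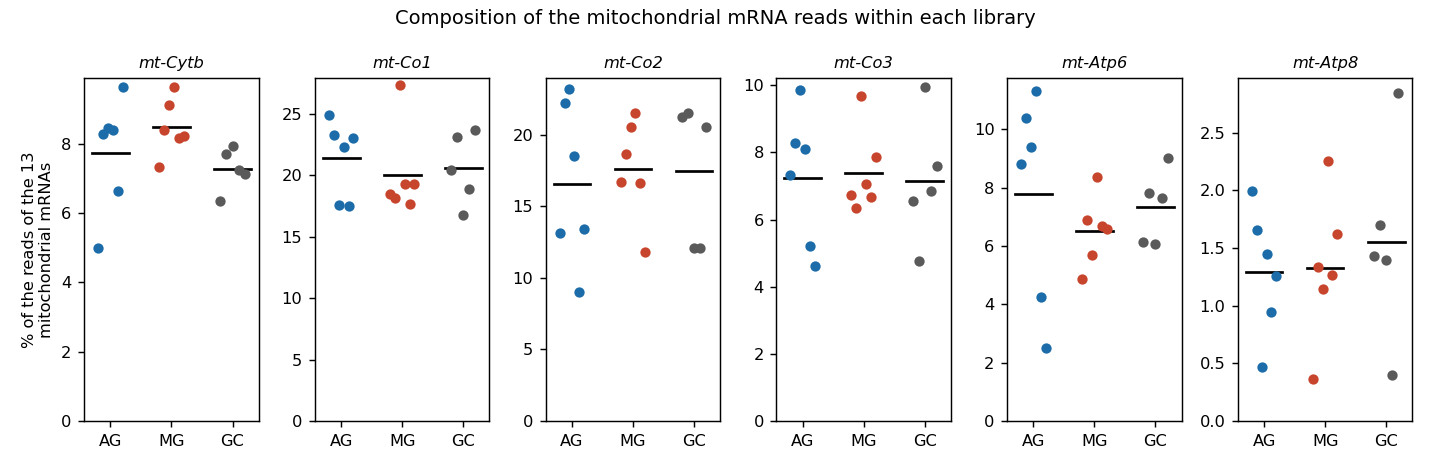
Share of each member in the reads of the 13 mitochondrial mRNAs (vertical axes in percent, from 0) in each AG, MG and GC library, with a line at the group mean. The groups overlap for all 6 members, and mt-Atp6 is most spread in AG, from 2.51% to 11.3%.

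Between genes, levels were compared per length, as RPKM, the read count divided by transcript length and by mapped reads. By the median over 17 libraries the order of the members was mt-Co2 (39.9 RPKM), mt-Co1 (27.5), mt-Atp6 (21.3), mt-Co3 (19.4), mt-Cytb (11.3) and mt-Atp8 (11.2), and the first 4 of these also led the 13 mitochondrial mRNAs. Within a library mt-Co2 exceeded mt-Co1 in 17 of 17 libraries, by 1.84-fold on the log2 mean (exact sign-flip permutation test, adjusted p = 0.000183 over 12 neighbouring pairs). The gene mt-Co1 exceeded mt-Atp6 in 14 of 17, by 1.31-fold (exact permutation test, adjusted p = 0.00572). The neighbours mt-Atp6 and mt-Co3 did not differ beyond their spread (ratio 1.11, higher in 11 of 17; exact permutation test, adjusted p = 0.217), nor did mt-Cytb and mt-Atp8 (ratio 1.06, higher in 8 of 17; exact permutation test, adjusted p = 0.691). Ranked among the members, mt-Co2 was first in 17 of 17 libraries, mt-Co1 second in 13, and mt-Cytb in position 5 in 10 and last in 6.

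The genes of 1 complex thus did not have equal RPKM. These values count fragments, and reads of the shared windows cannot be assigned, so the levels of whole mRNAs were not compared. In RPKM, mt-Co2 was 1.16 to 2.98 times mt-Co1 with a median of 1.95, and mt-Co3 was 0.394 to 1.17 times mt-Co1 with a median of 0.699. The ratio of mt-Co3 to mt-Co1 kept to 0.689 to 0.802 over the 6 MG libraries and went from 0.394 to 1.10 in AG and from 0.406 to 1.17 in GC. The ratio of mt-Atp8 to mt-Atp6, which are made as a single mRNA, had a median of 0.726 and a range of 0.167 to 1.67. That of mt-Cytb to mt-Co1 was below 1 in all 17 libraries, from 0.270 to 0.675. The medians of this last ratio were 0.510 in AG, 0.599 in MG and 0.450 in GC.

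**Figure D4:**
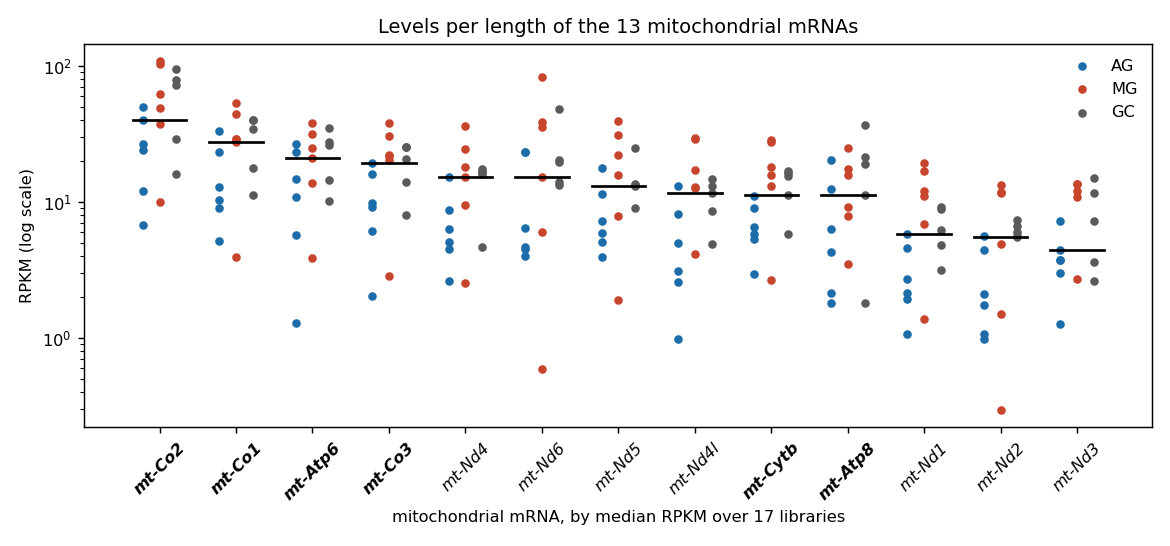
RPKM (log scale) of the 13 mitochondrial mRNAs in the 17 libraries, ordered by their median (black lines), with the members in bold; 1 value of 0, of mt-Nd3 in MG, cannot be drawn on a log axis. The gene mt-Co2 leads at a median of 39.9 RPKM, and mt-Cytb and mt-Atp8 sit side by side at 11.3 and 11.2.

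The other mRNAs of mitochondrial DNA code for 7 subunits of complex I, the entry point of electrons from NADH. They had 4401 reads in all and passed the filter in 7 of 7 cases. Between MG and AG all 7 had log2 fold changes above 0, from 0.50 for mt-Nd5 (SE 0.43, adjusted p = 0.684) to 1.47 for mt-Nd1 (SE 0.44, unadjusted p = 0.00311, adjusted p = 0.106), and 2 met the criterion of the study in the quasi-likelihood test. Of all tested genes, 4.78% were higher in MG by the criterion. The median of the 7 was 0.75, beside 0.57 for the members and 0.17 for all tested genes. In MG against GC 2 of the 7 met the criterion, both higher in MG, where 3.68% of all tested genes were higher by it. In AG against GC 0 of 7 did, where 11.8% of all tested genes met it. The medians of the 7 were 0.44 and −0.27, beside −0.003 and −0.21 for all tested genes.

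The mitochondrial rRNAs, mt-Rnr1 and mt-Rnr2, had a count of 0 in the deposited count column but RPKM of 285 to 11035. Their lowest values were in AG replicates 5 and 6, GC replicate 4 and MG replicate 4. Per 1000 RPKM of mean rRNA, the mean member had 3.13 to 14.8 RPKM in AG with a median of 4.63, 3.86 to 9.99 in MG with a median of 5.17, and 4.49 to 10.2 in GC with a median of 4.88. The groups overlapped over most of their range, with the highest ratios in AG replicate 5 (14.8), GC replicate 4 (10.2) and MG replicate 6 (9.99). Among single members the medians per 1000 rRNA RPKM in AG, MG and GC were 2.01, 3.25 and 2.49 for mt-Cytb, 8.30, 12.1 and 11.3 for mt-Co2, and 4.04, 4.02 and 4.25 for mt-Atp6. The means had another order, with 4.17 in AG and 3.63 in MG for mt-Cytb and 12.01 in AG and 11.9 in MG for mt-Co2, and AG spanned 1.66 to 10.7 for mt-Cytb and 7.47 to 24.4 for mt-Co2.

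**Figure D5:**
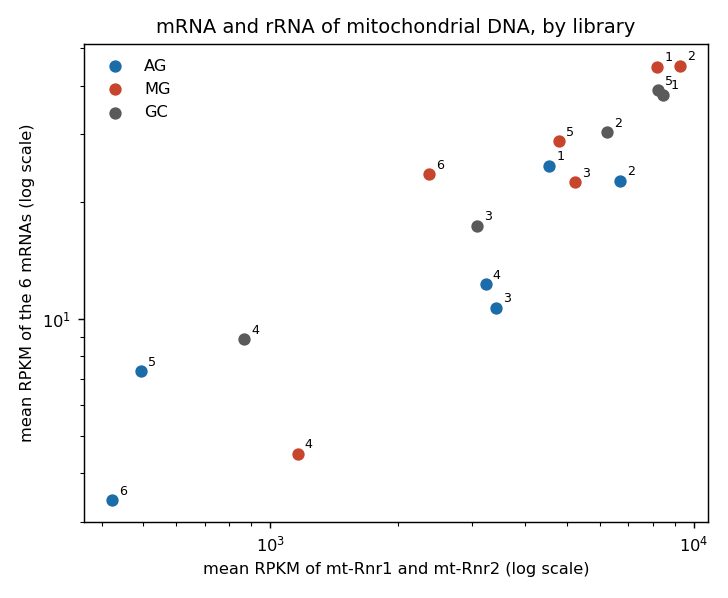
Mean RPKM of the 6 members against the mean RPKM of mt-Rnr1 and mt-Rnr2 (both log scales), 1 point per library with its replicate number. The 4 libraries lowest in mitochondrial rRNA were also the 4 lowest in the mRNAs, and the other libraries did not keep 1 order: AG replicate 2 had more rRNA than MG replicate 6 and less of the mRNAs.

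The nuclear-coded partners were much scarcer in plasma. Of 42 nuclear genes for subunits of complexes III, IV and V and associated proteins, 39 had at least 1 read, and together they had 971 reads, so that the members had 7.20 reads for each of theirs. None of the 42 passed the filter on low counts, and no group comparison was made for them. The most abundant were Cox5a, a complex IV subunit, with 98 reads, Atp5b, the catalytic subunit of the ATP synthase, with 82, and Atpif1, an inhibitor of the ATP synthase, with 78. Cox4i2, Cox7a1 and Cox8b had 0 reads. The 10 complex III genes had 125 reads, the 15 complex IV genes 365 and the 17 complex V genes 481. A list of 17 assembly factors had 53 reads, and 6 of them, among them Sco1 and Sco2, which deliver copper to complex IV, had 0. Coa5, an assembly factor of complex IV outside that list, had 177 reads and passed the filter.

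Of 15 genes for the synthesis and stability of mitochondrial RNA, Tbrg4, a mitochondrial RNA-binding protein gene, was the single one tested, with 148 reads. Its log2 fold change was −1.74 in AG against GC (SE 0.83, unadjusted p = 0.0465, adjusted p = 0.395), 1.07 in MG against AG (SE 0.81, adjusted p = 0.620) and −0.66 in MG against GC (SE 0.76, adjusted p = 0.994) by the quasi-likelihood test. The other 14 had few reads or none, with a median of 2 over the list of 15.

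Markers of cells whose RNA plasma can hold are given beside these results, as summed CPM of the total counts, without TMM. On that scale the members were at 781 to 2450 in AG, 1813 to 6602 in MG and 1353 to 3591 in GC. Platelet markers, 9 of 9 with reads, were at 147 to 2336 in AG, 578 to 5653 in MG and 630 to 5741 in GC. Of the 7 tested between MG and AG, Pf4 alone met the criterion of the study (log2 fold change 1.09, SE 0.43, adjusted p = 0.247, quasi-likelihood test). Of all tested genes, 4.78% were higher in MG and 8.46% lower by that criterion. Red cell markers, 9 of 9 with reads, were at 5639 to 19146, 1599 to 20017 and 4239 to 30358, and 4 of 7 tested were lower in MG than in AG by the criterion: Bpgm (−1.68), Alas2 (−1.32), Slc4a1 (−1.50) and Hbb-bt (−1.26). Red cells lose their mitochondria as they mature, whereas platelets keep theirs.

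Leukocyte markers were at 84.0 to 173 in AG, 112 to 396 in MG and 82.0 to 378 in GC, with Cd3e and Camp at 0, and Lyz2 was the single gene tested. Liver markers were at 15.8 to 1521, 69.0 to 2370 and 108 to 236, with Alb highest. Alb, the gene of serum albumin and the single liver gene tested, met the criterion of the study in both flight groups against GC, at 4.27 (SE 1.46, unadjusted p of 0.00778, adjusted p = 0.604) for MG and 3.43 (SE 1.44, unadjusted p of 0.0256, adjusted p = 0.366) for AG, and not between MG and AG (0.83, SE 1.16, adjusted p = 0.803), in the quasi-likelihood test. Skeletal muscle and heart markers had 142 and 152 reads in all, and Myh2 and Mylpf were at 0. On this scale the members and all 6 marker lists had higher medians in MG than in AG, red cell markers included (9521 in AG and 13002 in MG), although 4 red cell genes were lower in MG after TMM scaling. The part of these cells in the member results was not tested.

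Across the 17 libraries, each member was compared with the sum of the other 5 by Spearman's correlation of log2 TMM-normalized CPM, as a description, since these values share libraries and scaling. The values were 0.87 for mt-Co1, 0.74 for mt-Co2, 0.73 for mt-Co3, 0.72 for mt-Atp6, 0.72 for mt-Cytb and 0.38 for mt-Atp8, the member with the fewest reads. Among 259 tested genes outside mitochondrial DNA, those most like the sum of the members were Dap (0.61), Coa5 (0.48), 9430037G07Rik (0.47), Mctp1 (0.47) and Ctla2a (0.47), where the median gene had 0.05 and the lowest −0.60. Dap is a mediator of programmed cell death, and Coa5 was named above.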

How the data were processed

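Cell-free RNA was measured in plasma of 17 mice, 1 library each. The authors prepared libraries with a small RNA kit, mapped paired reads of 36 bases to mm10 and quantified genes in CLC Genomics Workbench 10.1.1. The deposited count column holds unnormalized reads per gene, with a lowest total of 84657 and a highest of 277682. The deposited RPKM column was scaled by the authors' software to gene length and mapped reads, and the deposited TPM column was not used here. The strand setting, trimming and treatment of reads with several matches were not given in the sources used here. For 579 genes the RPKM was above 0 where the count column held 0.

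Counts were tested in R 4.3.3 with edgeR 4.0.16: TMM, filterByExpr (272 genes kept), quasi-likelihood F-test, all libraries in 1 fit, no covariate, Benjamini-Hochberg adjustment. The biological coefficient of variation was 0.574. Alternatives used DESeq2 1.42.0, limma 3.58.1 on log2(RPKM + 1), edgeR's exact test, other scalings and filters. Shares and ratios were tested by exact permutation in Python 3.11.15 with scipy 1.17.1. Coordinates and sequences are from GENCODE M21 (GRCm38, the assembly called mm10), compared by BLAST 2.17.0. Only annotated transcripts were searched for copies. The scripts were checked on simulated data. No 2 libraries differed by less than sampling noise, and p-values cover the spread between these mice.

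Genes reported with values are the 6 members, examples of complex I, listed genes that passed the filter, nuclear copies matching a member over 100 bases or more at 95% identity, and the 5 genes most like the members. Gm11410, the closest match of mt-Cytb, and the nuclear and assembly genes below the filter were named after their values were seen. The members and lists were chosen with earlier results of these data known. Fits without MG replicate 4 and AG replicate 6 were added after seeing the data.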

Additional observations from a re-analysis of the deposited data

Results flagged for a closer look

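Of 36 groups (6 members, 3 groups, CPM and share), 2 had a library far from the rest, where chance gives 1.8. In AG, replicate 1 had 1311 TMM-normalized CPM of mt-Co1, while the other 5 libraries ended at 718. In MG, replicate 3 had 27.38% of its mitochondrial mRNA reads on mt-Co1, above all other libraries of the group.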

How the results depend on the processing

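The direction of MG above AG held for all 6 members in every setting tried, except that mt-Atp8 fell below the filter when only the 2 groups were fitted. The count of members with an adjusted p under 0.05 was 0 in all 3 comparisons and settings apart from library totals in MG against AG (4 members, 6 past the criterion of the study, 58 genes with an adjusted p under 0.05). Library totals gave 4 members past the criterion and 9 genes in AG against GC. Members past the criterion in MG against AG were 0 with no filter, where 619 of 6270 genes were higher by it. They were 1 with limma (12 of 272 genes higher), with only the 2 groups (12 of 183) and without the 4 dominant genes (10 of 268). Without MG replicate 4 and AG replicate 6 together 1 was left (14 of 254). DESeq2 gave 3 (18 of 272), and Mann-Whitney on scaled RPKM gave 4 (21 of 272). In MG against GC, DESeq2 gave 1 (11 of 272 genes higher), as did the fit without those 2 libraries (7 of 254). For MG and AG, genes below the adjusted threshold numbered 9 by DESeq2, 5 by the exact test, 6 with no filter, 1 with only the 2 groups and 2 without those 2 libraries. Between MG and GC they were 10 with no filter, and between AG and GC 8, 7, 0, 1 and 9 in the order DESeq2, exact test, no filter, 2 groups and without those 2 libraries, and 0 by limma and by Mann-Whitney. The cause was not tested.

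With 1 library left out, members past the criterion were 0 to 3 in MG against AG, 0 to 1 in MG against GC and 0 in AG against GC, and genes with an adjusted p under 0.05 were 0 to 10, 0 to 1 and 0 to 6. Of 260 to 309 tested genes, 5 to 21 were higher by the criterion in MG against AG and 5 to 20 in MG against GC. In AG against GC 20 to 46 met it in either direction. In MG against AG, 0 members were left without AG replicate 3 or MG replicate 1, and 1 (mt-Cytb) without AG replicates 4, 5 or 6, MG replicates 2, 3 or 5, or GC replicates 2 or 3. The 10 genes came without MG replicate 4.

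Signs turned for uncalled values. In MG against GC, mt-Atp8 was −0.054 with no filter, −0.22 with limma, −0.21 by Mann-Whitney, −0.10 without MG replicate 6 and −0.067 without GC replicate 4, within −0.10 to 0.45 over the fits with 1 library left out. There mt-Co1 was −0.039 and mt-Atp6 −0.16 with limma, and mt-Atp6 −0.018 by Mann-Whitney. In AG against GC, mt-Atp6 was 0.019 without the dominant genes and 0.12 without MG replicate 4 and AG replicate 6, and mt-Co1 ran from −0.32 to 0.033 with 1 library left out, the latter without AG replicate 3. The mt-Atp6 value ran from −0.31 to 0.099, and was above 0 at 0.035, 0.099, 0.0062 and 0.037 without AG replicate 5, AG replicate 6, MG replicate 3 and GC replicate 4.

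The replicate numbers were taken from the library titles. Same-numbered libraries had correlations from −0.45 to 0.53, not above 0.1 in all, and those of replicate 1 had 0.433 to 0.533. Libraries with different numbers were not set beside them, so whether the numbers mark a pairing cannot be told. A fit with the replicate block gave 1 member past the criterion in MG against AG, mt-Cytb, among 8 of 272 genes that were higher by it. In that quasi-likelihood fit mt-Co2 missed it with an unadjusted p of 0.0670. With the block, 3 genes had an adjusted p under 0.05 in MG against AG, and 5 genes in AG against GC. The counts of shares and of neighbouring levels that passed were unchanged in the settings tried. For the shares, a single one could not pass after adjustment in any of these settings, so the unchanged count is no sign of stability. Depth limits mt-Atp8 most.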
